A study of Drosophila melanogaster with 3 samples.

Results

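The strongest chromatin sites of Pif1B in the pupa of the fruit fly Drosophila melanogaster were the 263 peaks with a signal value of 500 or more, or 4.1% of the 6410 peaks that the authors kept as reproducible between replicates by the irreproducible discovery rate (IDR). They were selected on that signal, which is the authors' own enrichment value for each peak in the pooled libraries, so their strength is a description and no result. The other 6147 IDR peaks serve as the comparison throughout. The data are chromatin immunoprecipitation with sequencing (ChIP-seq) from whole, undissected pupae of 1 transgenic strain that stably expressed Pif1B fused at its C-terminal end to enhanced green fluorescent protein, recovered with an antibody against the fluorescent tag. The single group had 3 biological replicates of pooled male and female pupae, whose age within the stage is unknown, and no second genotype, stage or treatment. The labels give no promoter or insertion site for the tagged gene and do not say whether the flies kept untagged copies. All tissues of the animal were mixed, so a strong peak in few cells and a weaker one in many cannot be told apart. Only peak lists were analysed, and the depth of the libraries is unknown.

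Pif1B takes its name from its interaction with a PFTAIRE cyclin-dependent kinase, and it shares its locus on chromosome 3R with Pif1A. A chromatin protein can be crosslinked to DNA that it contacts itself or through partners, and a peak does not tell these apart. In flies, many promoters lie head to head, with 2 genes transcribed away from a short shared region, and the first introns of developmental genes often hold regulatory elements. During the pupal stage, pulses of the steroid hormone ecdysone drive the replacement of larval tissues by those of the adult.

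A few short words were more frequent at the strong summits than at the other IDR summits. The windows below are those of the strongest peaks that hold one, among windows with at most 30 bases of untranslated region. Windows with more such bases were left out, so the peaks shown are a selection. Each gives the plus strand from 50 bases before to 50 bases after the summit, from the RefSeq sequence of dm6. Capitals mark the word CTTAAA, the word TTAAAA or else the word GTTAAA, on either strand and with overlaps allowed.
Ugalt, chrX:2703830-2703930: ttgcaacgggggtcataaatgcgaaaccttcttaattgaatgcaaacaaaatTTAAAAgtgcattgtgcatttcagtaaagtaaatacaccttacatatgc
CG14100, chr3L:19590571-19590671: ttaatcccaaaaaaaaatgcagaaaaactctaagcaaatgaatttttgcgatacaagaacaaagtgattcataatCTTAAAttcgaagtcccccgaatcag
CG11050, chr2L:6612655-6612755: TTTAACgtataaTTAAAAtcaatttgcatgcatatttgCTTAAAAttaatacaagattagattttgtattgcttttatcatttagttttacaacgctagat
ush, chr2L:481005-481105: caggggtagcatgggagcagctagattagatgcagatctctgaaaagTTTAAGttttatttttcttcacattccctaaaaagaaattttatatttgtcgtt
larp, chr3R:28326526-28326626: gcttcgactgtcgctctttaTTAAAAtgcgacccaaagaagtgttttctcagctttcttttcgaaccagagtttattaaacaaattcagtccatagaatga
CG18549, chr3R:12449138-12449238: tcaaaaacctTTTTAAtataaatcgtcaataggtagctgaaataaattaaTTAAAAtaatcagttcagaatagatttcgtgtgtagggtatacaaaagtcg
mRpS23 and CenG1A, chr2L:13835416-13835516: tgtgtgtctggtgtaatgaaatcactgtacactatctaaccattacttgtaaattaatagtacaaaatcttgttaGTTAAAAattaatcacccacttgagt
lncRNA:CR31044, chr3R:29214392-29214492: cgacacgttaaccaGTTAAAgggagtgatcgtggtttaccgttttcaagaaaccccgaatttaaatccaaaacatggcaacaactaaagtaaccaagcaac

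The strong peaks ranked near the top of every replicate. In the relaxed lists of the replicates, which hold 29999 to 30000 regions each and so mostly weak ones, the median rank of the overlapping region was 133.5 in replicate 1, 132 in replicate 2 and 133 in replicate 3. Of the 263 peaks, 184 (70.0%) lay within the first 263 regions of all 3 replicates, 60 of 2 replicates and 19 of only 1. The summits were also placed alike. The nearest replicate summit lay within 50 bp of the strong summit in 96.2%, 94.3% and 96.6% of cases in replicates 1, 2 and 3, against 80.5%, 75.7% and 80.2% for the other IDR peaks. The pooled signal and summits were made from the same reads as the replicate ranks and summits, and the members were selected on high signal. The ranks and the summit distances therefore describe the members and do not test them.

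**Figure D1:**
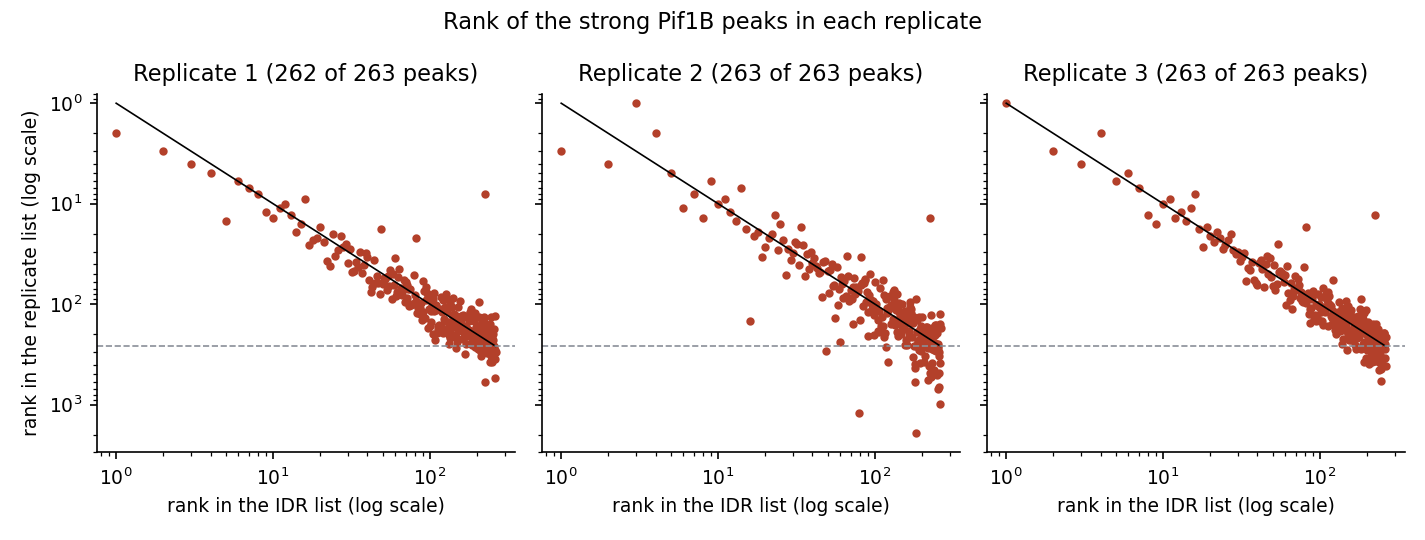
Rank of each strong peak in the relaxed list of each replicate (vertical axis, log scale, strongest at the top) against its rank in the IDR list (horizontal axis, log scale); the solid line marks equal ranks and the dashed line rank 263. Most points lie close to the line, and replicate 2 holds those farthest below it, at ranks 1221 and 1904.

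A few strong peaks rested on some of the replicates. The start of CG10413 (2L, 18604973 to 18605302, signal 668) ranked 110 in replicate 2 and 157 in replicate 3 but had no overlapping region in replicate 1, where the nearest summit was 16.7 kb away. The start of yip2, which encodes an acetyl-CoA acyltransferase, ranked 51 and 43 in replicates 1 and 3 and 1221 in replicate 2 (signal 743). A peak in an annotated 5' untranslated region where ush and cbt overlap ranked 113, 1904 and 88 in replicates 1, 2 and 3 (signal 579). The intronic peak of dnr1, a negative regulator of innate immune signalling, ranked 9, 147 and 8. The worst rank was over 3 times the best in 32 of the 262 peaks found in all replicates, and in 20 of those 32 the worst rank was that of replicate 2. The median ratio was 1.82.

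Strong peaks lay at promoters more often than other IDR peaks did. Of the 263 strong summits, 153 were at most 500 bp from an annotated start (58.2%, 95% Clopper-Pearson interval 51.96 to 64.2), against 2233 of 6147 other IDR summits (36.3%, 35.1 to 37.5). This is an odds ratio of 2.44 with a Woolf interval of 1.90 to 3.13 (p = 2.43e-12 in a two-sided Fisher's exact test over peaks). The first 263 regions of each replicate's own list gave the same contrast against its next 6147, with 57.0%, 56.7% and 54.0% at promoters in replicates 1, 2 and 3 (55.9% ± 1.66, SD, n = 3), against 39.6%, 39.9% and 35.8% (38.4% ± 2.32). Peaks are not replicates, and some share a gene or overlap, so the test describes this 1 set of libraries and its interval covers counting error only.

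**Figure D2:**
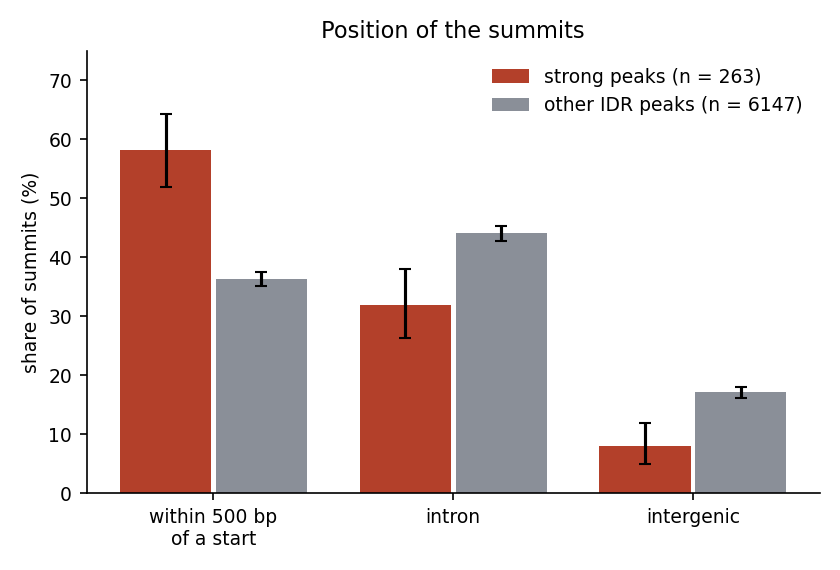
Share of summits by position (percent) for the strong peaks (left bars) and the other IDR peaks (right bars), with 95% Clopper-Pearson intervals as error bars. Promoters held 58.2% of strong and 36.3% of other summits, and intergenic sequence 7.98% and 17.1%.

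At promoters the strong summits were concentrated upstream of the start. In 125 of 153 strong promoter peaks the summit lay upstream of its nearest start (81.7%, interval 74.6 to 87.5), against 1602 of 2233 other promoter peaks (71.7%, 69.8 to 73.6). Over 100 and up to 200 bp upstream lay 65 strong summits (42.5%, 34.5 to 50.7) and 500 other ones (22.4%, 20.7 to 24.2). Within 50 bp of the start the order was turned round, with 10 strong summits (6.536%, 3.18 to 11.7) and 446 other ones (19.97%, 18.3 to 21.7). These distance classes were chosen after the values were seen and were not tested.

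**Figure D3:**
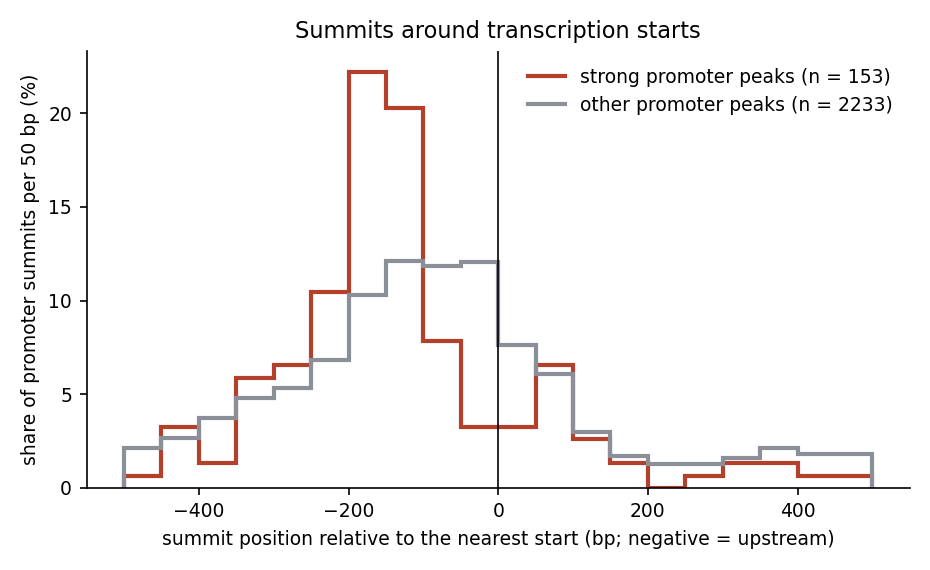
Share of promoter summits (percent per 50 bp) by position relative to the nearest transcription start, for 153 strong peaks and 2233 other IDR peaks, with negative positions upstream. The strong summits peak between 100 and 200 bp upstream, where the other summits form a broad shoulder that reaches the start.

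Strong promoter peaks also lay more often at pairs of diverging genes. Protein-coding starts of both strands, pointing away from each other within 500 bp of the summit, were found at 39 of 153 strong promoter peaks (25.5%, interval 18.8 to 33.2) and at 339 of 2233 other promoter peaks (15.2%, 13.7 to 16.7). This is an odds ratio of 1.91 with an interval of 1.31 to 2.80 (p = 0.00130 in a two-sided Fisher's exact test over peaks). The paired starts were a median of 236 bp apart at strong and 296 bp apart at other peaks. The summit lay between both starts in 24 of the 39 strong cases (61.5%) and in 231 of the 339 others (68.1%). A peak of this kind has starts of both genes within 500 bp, so its signal cannot be given to 1 of them.

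Away from promoters, the strong summits lay mostly in introns. Introns held 84 of the 110 strong summits over 500 bp from every start (76.4%, interval 67.3 to 83.9) and 2707 of 3914 other ones (69.2%, 67.7 to 70.6), an odds ratio of 1.44 (0.923 to 2.25) that did not pass (two-sided Fisher's exact test, p = 0.116). Of the 84 intronic strong summits, 70 were in a first intron of some transcript (83.3%, 73.6 to 90.6), against 66.3% (64.5 to 68.1) of the 2707 others, a contrast chosen after the values were seen and not tested. Coding sequence and 3' untranslated regions held 0 of the same 110 strong summits each, against 6 and 45 of the 3914 other ones. Summits within 500 bp of a start were classed as promoter whatever else they overlapped, so they do not enter these counts. Overlap with a 5' untranslated region was given before coding sequence. Intergenic sequence held 21 strong summits, and 23 (8.75%, 5.62 to 12.8) were over 5 kb from every start, against 1391 (22.6%, 21.6 to 23.7) of the other IDR summits. The 3 farthest lay in intergenic sequence near CG43245 (32.0 kb from a start, signal 517), in an intron of CG42238 (25.2 kb, 646) and in an intron of gpp, which encodes the methyltransferase of histone H3 lysine 79 (14.6 kb, 628).

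The share of strong peaks on the X chromosome did not differ detectably from that of the others. It held 47 of 263 strong peaks (17.9%, interval 13.4 to 23.05) and 1185 of the 6123 other IDR peaks on chromosomes X, 2 and 3 (19.4%, 18.4 to 20.4), with an odds ratio of 0.907 (0.657 to 1.25, two-sided Fisher's exact test, p = 0.632). No strong peak lay on chromosome 4, which held only 0.390% of the 6147 other IDR peaks, so this absence says little.

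The strong peaks were assigned to 302 genes by a start within 500 bp (153 peaks), else by the gene around the summit (89 peaks), else by the nearest start (21 peaks). Of these genes, 276 were protein-coding, 79 of them known only by a CG number. In 15 of the 84 intronic strong peaks the nearest start belonged to a gene other than the one around the summit. The 20 highest peaks are followed by 40 peaks at ranks 21 to 60, with signals of 828 to 1153. They comprise 25 at promoters, 10 in introns, 4 in intergenic sequence and 1 in a noncoding exon, and 8 of the 25 sit at divergent pairs.

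The start of Gapdh2, the glycolytic glyceraldehyde-3-phosphate dehydrogenase, held a peak of 1153 (X, 15867756 to 15868187, summit 164 bp upstream) that ranked 24, 22 and 24 in replicates 1, 2 and 3. Lpin, a phosphatidate phosphatase needed for fat storage, had a peak of 1106 with its summit 250 bp upstream of a start. The replicates placed it at ranks 29, 23 and 23. GstE13, a glutathione S-transferase, followed at 936, aay, the phosphoserine phosphatase, at 868 and Cat, the catalase that breaks down hydrogen peroxide, at 845. Cat ranked 46, 139 and 47, lower in replicate 2 than in the others.

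The diverging starts of Tcs5 and CHMP2B, a subunit of the membrane-remodelling complex ESCRT-III, shared a peak of 1141 (3L, 5139333 to 5139669) at ranks 37, 20 and 19. A start of SLC5A11, a solute carrier, held one of 987, shared with lncRNA:CR44120. Pex11ab, a peroxisome protein, shared a peak of 860 with CG8320. Stt3A, the catalytic subunit of oligosaccharyltransferase, shared one of 834 with bves. CG11309 with CG7632 (975), CG3437 with CG3552 (961), CG13390 with CG17294 (921), CG8372 with CG8360 (905) and tank with CG12194 (900) were the other divergent pairs there.

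Also at ranks 21 to 60 were Btk, a Tec-family tyrosine kinase (1067), gish, a casein kinase I family member (917), neur, the ubiquitin ligase that activates Notch ligands (910), and Raf, the kinase of the MAP kinase cascade (870). The peak at Btk ranked 25, 36 and 32 in replicates 1, 2 and 3 and that of gish 76, 42 and 36. The peaks of neur and Raf were intronic, 1.69 and 5.24 kb from a start. Hr4, an ecdysone-response nuclear receptor, had an intronic peak of 907, ph-p, a Polycomb group gene, a promoter peak of 856, and papi, a Tudor protein of the piRNA pathway, a promoter peak of 854.

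The other single promoters at ranks 21 to 60 were those of CG4586 (1087), Tina-1 (1033), CG31145 (969), CG13501 (828) and hdly (828). Hdly was less steady than most, with ranks 35, 241 and 51 in replicates 1, 2 and 3. Noncoding genes held the promoter peaks of lncRNA:CR44619 (1117) and lncRNA:CR46102 (949) and an exon peak in lncRNA:Vinr (951). The introns were those of CG13204 (1095), CG12769 (1023), CG4496 (998), CG42327 (991), Reph (900), CG32486 (834) and chif, the fly relative of the replication kinase activator Dbf4, at a site that Hyls1 overlaps (888). The intergenic peaks lay nearest CG31668 (1132), CG13323 (1114), CG43389 (902) and lncRNA:CR44713 (889). That last one ranked 18, 294 and 54.

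Several genes carried more than 1 strong peak, 17 of the 302. CG32772, a zinc finger gene, had 3, of which 2 share 1 interval with a summit each (1446 and 529) and the third is at its start (1159). The neighbours ush and cbt together had 3 (1628, 623 and 579), cbt being a transcription factor gene related to TIEG. Hr4 had intronic peaks of 907 and 648 and Raf of 870 and 571. The Polycomb group gene ph-p had peaks of 856 and 564, with summits 450 bp upstream and 407 bp downstream of the start nearest to each. Ptpmeg2, a tyrosine phosphatase, had promoter peaks of 633 and 627, and shn, the zinc finger protein of the Dpp pathway, had a promoter peak of 656 and an intronic one of 514. RapGAP1, a GTPase activator of Rap1, had 514 and 507, CG9663 1160 and 736, CG42327 991 and 597, and CG8034 612 and 592. Those of CG9663 are 2 summits of 1 shared interval. The remaining genes were brwl (602 and 552), lncRNA:CR45668 (669 and 610), and, with the peaks nearest to them, CG43245 (783 and 517), CG18404 (689 and 503) and lncRNA:CR45643 (733 and 509). Another strong summit lay within 10 kb of 42 of the 263 peaks (15.97%).

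Gene lists were read as counts. Of 3042 protein-coding genes assigned to any IDR peak by the same rule, 276, or 9.07%, had a strong one. Of the 22 lists, which overlap, chromatin regulators stood highest, with 15 of the 46 members that had an IDR peak (32.6%). They were Chro (1430), a chromodomain protein of interbands, osa (1369), of the Brahma remodelling complex, and the Polycomb group genes ph-p (856) and Psc (694). Trl, which encodes GAGA factor, followed (794), with trx, a Trithorax group methyltransferase (677), sbb (664), gpp (628), Tet (610) and Mi-2, a nucleosome remodeller (602). The rest were simj, a partner of Mi-2 (593), Gcn5, a histone acetyltransferase (544), tna (537), JIL-1, a histone H3 kinase (526), and brm, the Brahma ATPase (526, shared with Arl1). The strong peak was at a start in 5 of the 15, against 178 of the 276 protein-coding genes with a strong peak. Not all these peaks can be given to the named gene alone. That of Chro was shared with Ssl1. The osa peak, in a noncoding exon, was also assigned to lncRNA:CR46035, whose start was the nearest, 708 bp away. For the gpp peak the nearest start was that of lncRNA:CR44017. Genes with many peaks have more chances of a strong one. Among genes with 4 or more IDR peaks, 89 of 427 had a strong one (20.8%), as did 11 of 19 chromatin regulators, while among genes with 1 IDR peak the counts were 117 of 1857 (6.30%) and 3 of 21. With 2 to 3 IDR peaks they were 70 of 758 (9.23%) and 1 of 6.

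Mitochondrial ribosomal and RNA-binding protein genes also had counts above 9.07%. Mitochondrial ribosomal proteins had a strong peak in 4 of 15 (26.7%), at starts in all 4 against the 178 of 276 over all such genes: mRpS23 (1430), mRpS10 (735), mRpL23 (696) and mRpL41 (671). All 4 peaks also had a start of another gene within 500 bp, that of CenG1A, Art3, CG9004 and lncRNA:CR44463 in turn. Their signal therefore cannot be given to the ribosomal protein gene alone. RNA-binding factors had one in 8 of 40: PNPase, a polynucleotide phosphorylase (1861), larp (1626), pum, a translational repressor (797), elav, the neuronal RNA-binding protein (605), spen (566), Syp (550), orb2 (543, shared with GNBP3) and msi (526). By contrast, 0 of 37 cytoplasmic ribosomal protein genes had a strong peak, and the median of their strongest signals was 141, against 173 over all protein-coding genes with an IDR peak. Oxidative phosphorylation genes had 3 of 14, COX7AL2 (692), Cyt-c-d (652) and ND-ASHI (515).

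Of the ecdysone response genes, 6 of 29 (20.7%) had a strong peak. Those with an IDR peak had a median of 3, against 1 over all protein-coding genes with one. The part of peak number in this share was not tested. The 6 genes were the nuclear receptor genes Hr4 (907), Eip75B (637) and Eip78C (633), all in introns, the transcription factor gene Sox14 (627), the ABC transporter gene E23 (622) and ImpL2, an insulin-binding protein (610). Eip75B ranked 108, 190 and 109 in replicates 1, 2 and 3 and Eip78C 125, 98 and 183. The ubiquitin system had 6 of 25 (24.0%), with Fbw5 (1299), dnr1 (1261), neur (910), Fbxl7 (630) and eff, an E2 enzyme (526), among them. Those 25 genes had a median of 2 IDR peaks, and the part of peak number was not tested there either. Solute transporters had 6 of 27 (22.2%), at starts in all 6 against the same 178 of 276: Ugalt (1933), CG18549 (1522), SLC5A11 (987), E23 (622), ZnT63C (529) and MFS18 (521).

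Lists close to the background were DNA-binding transcription factors, with 14 of 157 (8.92%), kinases and phosphatases, with 7 of 80 (8.75%), developmental signalling, with 8 of 93 (8.60%), membrane traffic, with 5 of 49 (10.2%), and cytoskeleton and adhesion, with 6 of 88 (6.82%). That background makes no allowance for peak number. The median number of IDR peaks per gene was 3 in developmental signalling and 1 in membrane traffic, against 1 over all protein-coding genes with one. The strongest transcription factor genes were ush (1628), CG32772 (1446), Hr4 (907), NFAT (796), Trl (794) and CHES-1-like (714). The start nearest to the ush peak was that of cbt, 1.37 kb away. For the peaks of Hr4 and CHES-1-like it was that of CR46447 and of lncRNA:CR43287. Kinases were led by Lk6 (1354) and, after Btk, gish and Raf, by for, the cGMP-dependent kinase (724), and puc, the phosphatase of the JNK pathway (692). In signalling, neur and puc were followed by ds, a giant cadherin (668), shn (656), imd, an adaptor of innate immunity (643), and dpp, the BMP ligand (564). Traffic genes were CenG1A (1430, shared with mRpS23), Mtl (747), RhoGAP18B (534), Arl1 (526, shared with brm) and Vps33B (500). Adhesion and polarity genes were crb (694), ds, baz (652), Myo61F (565), CLIP-190 (508) and mtgo (506).

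Smaller lists had few strong members in number, but their shares were not all low. Neuronal genes had 3 of 19, Piezo (693), elav and KCNQ (567), and immune genes 3 of 20, dnr1, imd and GNBP3 (543). Chaperones had 2 of 14, Hsp27 (1415) and Hsp83 (709), general transcription factors 2 of 15, Ssl1 (1430, shared with Chro) and Su(Tpl) (602, shared with Mi-2), and cell death genes 2 of 18, dnr1 and puc. Translation factors had 1 of 20, eIF6 (740), and the circadian list 1 of 12, norpA (510). The neuronal, immune, chaperone, general transcription and cell death shares were above 9.07%, from 11.1% for cell death to 15.8% for neuronal genes. Those of translation factors and the circadian list were below 9.07%. Each of these shares rests on at most 3 strong genes, so it says little. No strong peak was assigned to the 21 genes of the cuticle, chitin and pigmentation list, or the 17 of the cell cycle, replication and repair list, that had an IDR peak. With so few genes and a share of 9.07% over all protein-coding genes, these absences say little. The cell cycle list leaves out chif (888) and DNAlig3, a DNA ligase gene nearest to an intergenic peak of 552. Of the 276 protein-coding genes, 87 were in at least 1 list, so the lists leave most of them out.

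**Figure D4:**
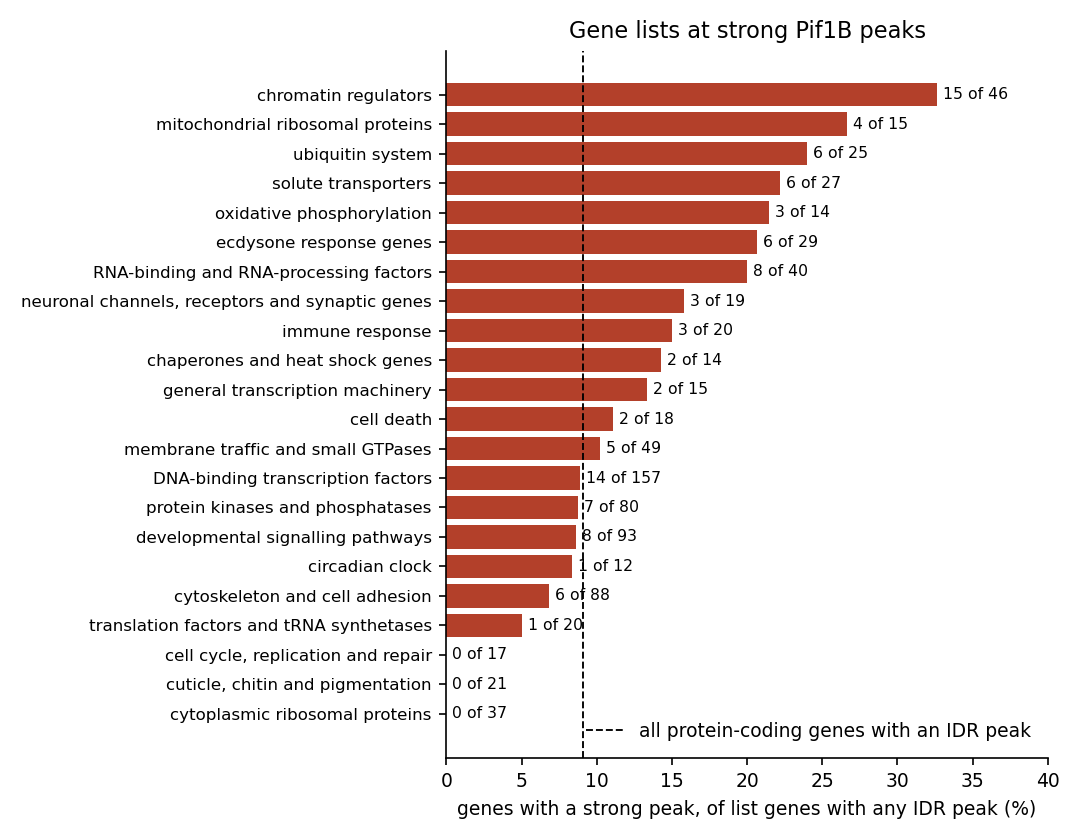
Percent of each list's genes with an IDR peak that had a strong one, with the counts beside the bars; the dashed line marks 9.07%, the value over all 3042 protein-coding genes with an IDR peak. Chromatin regulators stand highest at 32.6%, and 3 lists are at 0.

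The locus of the tagged gene held a strong peak as well. It lay in an intron shared by Pif1B and Pif1A (3R, 8789061 to 8789351), 3.35 kb from their start, with a signal of 617 and rank 158, and ranked 142, 151 and 114 in replicates 1, 2 and 3. A transgene can add a copy of this locus, so binding and copy number cannot be told apart there.

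The threshold of 500 cuts a continuous series. The last peaks inside it were CG9399 (501), CBP (501) and the region between Fur1 and Vps33B (500), all at starts. The first outside it were intronic peaks of CHES-1-like (499), mtgo (498) and shep (498). Of these genes, CHES-1-like and mtgo also had a strong peak.

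Strong summits were poorer in G and C. The median GC content within 50 bp of the summit was 30.7% at strong summits (quartiles 26.7 and 35.6) and 33.7% at other IDR summits (27.7 and 41.6). The gap was widest at promoters, with 30.7% against 38.6%, and narrow in introns, with 30.7% against 32.7%. Peak shape went with it. No strong peak had the width of 430 bp that 76.6% of the other IDR peaks had, and the 1438 other peaks of another width had a median GC content of 31.7%. Its part in the result was not tested.

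Among all hexamers, each merged with its reverse complement, 3 passed the comparison between strong and other windows (0.144% of those tested; 166 had an unadjusted p under 0.05). All 3 contain the letters TTAAA and are those in capitals in the windows above. CTTAAA was in 66 of 263 strong windows (25.1%, interval 19.97 to 30.8) and 818 of 6147 other ones (13.3%, 12.5 to 14.2; two-sided Fisher's exact test with Benjamini-Hochberg adjustment, adjusted p = 0.00118). TTAAAA was in 110 strong windows (41.8%, 35.8 to 48.0) and 1697 other ones (27.6%, 26.5 to 28.7; Fisher's exact adjusted p = 0.00167). GTTAAA was in 47 (17.9%, 13.4 to 23.05) and 588 (9.57%, 8.84 to 10.3; Fisher's exact adjusted p = 0.0345). Among the 22032 weaker regions of the pooled list, which overlap none of the IDR peaks, the shares were 10.6%, 21.3% and 7.73%. At least 1 of the 3 words was in 148 strong windows (56.3%), 2266 other ones (36.9%) and 29.6% of the weaker regions. When the members were chosen without replicate 2, only CTTAAA passed (Fisher's exact adjusted p = 0.00526, against 0.0628 for TTAAAA and 0.310 for GTTAAA), and without replicate 3 GTTAAA did not (0.185). At a signal of 750 or more, with 76 strong peaks, no word passed. A match is a word in a window and no evidence of a site.

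Base composition moved with these words, and its part in the result was not told apart from theirs. Over the 36 hexamers made only of A and T that were in at least 50 other windows, the median ratio of strong to other share was 1.24, and over the 192 with 1 G or C it was 1.19. The ratio was 1.52 for TTAAAA, 1.89 for CTTAAA and 1.87 for GTTAAA. Among words with 2 and with 3 G or C, none of which passed, the highest ratios were 2.45 and 2.74. Among windows with a GC content of 35% or less, CTTAAA was in 29.3% of 184 strong and 18.6% of 3317 other ones, TTAAAA in 92 of the 184 and 1364 of the 3317, and GTTAAA in 19.02% and 12.96%, and no hexamer passed there (83 had an unadjusted p under 0.05; Fisher's exact adjusted p = 0.717 for CTTAAA). Among peaks of a width other than 430 bp only CTTAAA passed, with 25.1% of strong and 14.2% of other windows (Fisher's exact adjusted p = 0.0451). CTTAAA was at similar shares of strong windows at promoters (25.5%), in introns (21 of 84) and in intergenic sequence (28.6%), against 10.9%, 14.3% and 16.7% of other windows. TTAAAA was in 47.1% of strong and 24.3% of other promoter windows, but in 34.5% and 29.1% of intronic and 38.1% and 31.3% of intergenic ones. GTTAAA was in 17.6% of strong and 8.33% of other promoter windows and in 21.4% and 10.4% of intronic ones, while in intergenic sequence it was in 1 of 21 strong windows (4.76%) and 10.2% of other ones. The next 7 hexamers by p did not pass. The word ATTTAA was in 34.98% of strong and 24.4% of other windows, the word CTTACA in 10.3% and 4.96%, and the word GCGCAC in none and 3.19%, with Fisher's exact adjusted p from 0.0971 to 0.188 over the 7. The other words higher in strong windows were ATTAAA with a share of 33.1%, then ATTTTA with 34.6%, then TTACAA with 18.3%, and CGCAAA was lower, with 1.14% against 5.38%.

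**Figure D5:**
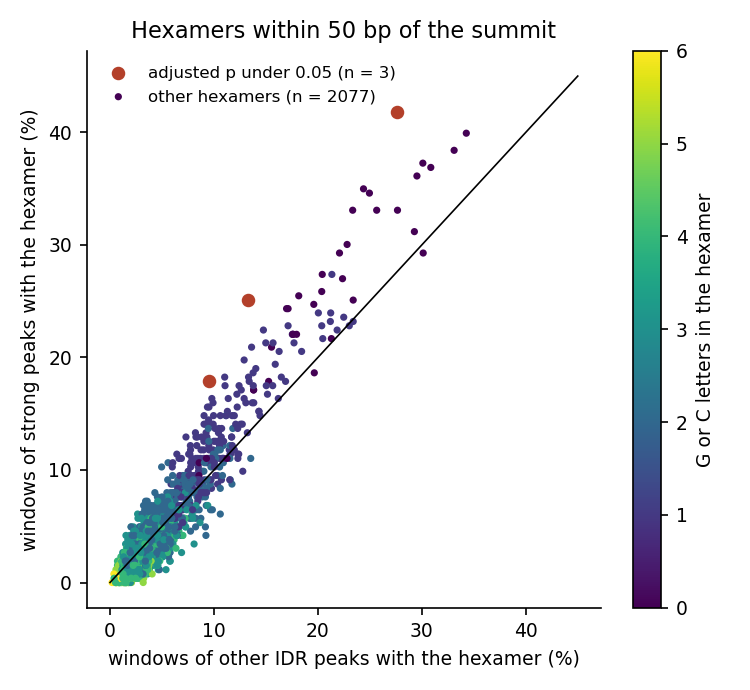
Share of windows with each hexamer (percent) at strong summits (vertical axis) against other IDR summits (horizontal axis), coloured by the number of G or C letters; large points are the 3 words past the adjusted test. The line marks equal shares, and most words without G or C lie above it.

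Of 40 known motif words searched on both strands of the same windows, none passed (0% called; 3 had an unadjusted p under 0.05). The lowest p was that of GAGAG, the core bound by GAGA factor, which was in 27 strong windows (10.3%, interval 6.88 to 14.6) and 1028 other ones (16.7%, 15.8 to 17.7), against 13.1% of the weaker regions (Fisher's exact adjusted p = 0.196). The longer repeat GAGAGAGA was in 1 strong window (0.380%) and 138 others (2.25%; Fisher's exact adjusted p = 0.529). Strong windows were poorer in G and C (median 30.7% against 33.7%), and the part of base composition in these shares was not tested. The other word with an unadjusted p under 0.05 was the TATA box TATAAA, which was higher in strong windows. It was in 68 strong windows (25.9%) and 1252 other ones (20.4%; Fisher's exact adjusted p = 0.529). The DNA replication element TATCGATA, which marks many housekeeping promoters, was in 1 strong window (0.380%) and 29 other ones (0.472%).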

How the data were processed

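ChIP-seq peak lists of 3 biological replicates of 1 group were used, in dm6 (dm3 for 1 count). Per the deposited text files, the authors called relaxed lists per replicate and on pooled replicates, and derived the IDR list. Caller and IDR threshold: not given in the sources used here. The deposited signal value of each peak was used, and its p-value and score columns, constant in the deposited lists, were not. No depth is known. Members, lists and motifs were chosen with earlier results of these data known. Ensembl gave the starts (BDGP6, the dm6 assembly) and RefSeq the sequence. Strong and other IDR peaks were compared by two-sided Fisher's exact tests across peaks (Python 3.11.15, scipy 1.17.1), checked on simulated data. Replicate ranks are those of the strongest overlapping region (at least 1 bp). Gene lists are counts without test, and 1637 of 1794 listed symbols were in the annotation. Named genes are those at ranks 21 to 60, the first 6 strong members of each list, genes with 2 or more strong peaks, and the members nearest the threshold, farthest from starts and least alike in rank. Other named genes were chosen after their values were seen. A member of 1 list is not reported here.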

Additional observations from a re-analysis of the deposited data

How the results depend on the processing

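No paired analysis was possible because there is 1 group. The promoter and divergent shares kept their direction and call under every alternative run, with log2 odds ratios of 0.96 to 2.48 and 0.68 to 1.44. The intron share passed under none of those run. The X share, which did not pass, changed sign at a threshold of 750 (log2 odds ratio 0.0413). The 3 hexamer calls became 17 at a threshold of 400, 0 at 750 (61 unadjusted, with 76 strong peaks), 11 in windows of 100 bp on each side, 12 among promoter summits, 0 among distal ones (73 unadjusted), 0 in windows of 35% GC or less and 1 among peaks not 430 bp wide. They numbered 1 to 3 when members were chosen without 1 replicate. The single word that passed without replicate 2 was CTTAAA. Fewer peaks enter several of these fits, and other causes were not tested. Of the motifs, 1 passed at a threshold of 400, GAGAG, in 10.8% of strong and 16.9% of other windows (Fisher's exact adjusted p = 0.0152). The part of base composition in that call was not tested. With overlap of at least 50% of both regions, 89.4% of strong peaks were matched in all replicates, against 99.6%. The settings on GC, summit position and width were chosen after seeing the data. Members chosen without 1 replicate shared 225 to 234 of the 263. The annotation limits what counts as a start, unknown depth leaves weak sites uncompared, and peaks are not replicates.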

Other observations

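Strong peaks were spread unevenly over the chromosome arms, which was not tested. Arm 2L held 64 of the 263 (24.3%), against 17.9% of the other IDR peaks, a density of 2.72 per Mb. Arm 2R held 39 (14.8%), against 17.3%, or 1.54 per Mb. The densities on X, 3L and 3R were 2.00, 1.92 and 1.84 per Mb. In 17 strong peaks the same interval was listed with 2 summits, so that both take the same replicate rank.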
